A study of Danio rerio with 24 samples.

Results

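The 6 RNA-seq libraries described here, of 24 samples in the series, were made from the brain of adult zebrafish whose heart muscle cells had been ablated. They were chosen by their labels alone: 3 libraries came from fish homozygous for loss of cebpd (called mutants below) and 3 from wild type fish. All fish of both groups were males of the EK strain, 4 to 12 months old, and all were bathed for 17 h in tamoxifen at 0.5 to 0.7 µM to ablate cardiomyocytes. Brains were taken 7 days after the bath, so the wild type group is an injured group too and no uninjured mutant brain is among the samples. The labels name neither the mutant allele nor the transgene that makes cardiomyocytes sensitive to tamoxifen, and they do not say whether a library was made from 1 fish or from a pool. They also do not say that replicates were separate animals, so the p-values measure the spread between these libraries.

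The gene cebpd encodes CCAAT/enhancer-binding protein delta, a leucine zipper transcription factor that binds DNA as a dimer with itself or with other C/EBP proteins. In mammals it is known as an acute-phase factor: its transcript is low in resting tissue and climbs quickly after inflammatory cytokines or glucocorticoids, in glia among other cells. The comparison asks which brain transcripts differ when this factor is missing while the heart is injured.

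The files held counts for 14781 genes, and 11103 of them had enough reads to be tested. Depth was 4377028 to 6280007 gene reads per library, and within a group the Spearman correlation of counts across genes was 0.990 to 0.993. Between groups it was 0.988 to 0.993, so these correlations did not set the genotypes apart. Wild type replicate 3 correlated at 0.9917, 0.9928 and 0.9922 with the mutants and at 0.9905 and 0.9916 with wild type replicates 1 and 2. The tissue label matched the markers, with the neuronal list summing to between 20239.5 and 20807 CPM in each library and the pan-neuronal gene elavl4 at 1907, 1952 and 1861 CPM in wild type and 1862, 1776 and 1849 CPM in mutants. CPM are counts per 1000000 reads on library sizes scaled by TMM (trimmed mean of M values), and 3 values in a row are always replicates 1, 2 and 3. Wild type replicate 1 stood apart on the first principal component of the 500 most variable genes, which held 47.6% of their variance. It lay at -20.8, the other wild type libraries at -3.87 and -1.67, and the mutants at 6.49 to 10.04. On the third component (14.3%) mutant replicate 1 lay at 11.3 and the other libraries at -5.79 to 1.86. Muscle transcripts in mutant replicate 1 are given below. The counts of calls and the pineal genes, which lean on wild type replicate 1, are given with and without it.

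The transcript of cebpd itself was nearly lost in mutants. Wild type brains held 49.4, 78.4 and 41.7 CPM of it (208, 379 and 262 reads) and mutant brains 1.298, 3.05 and 0.906 CPM (7, 18 and 5 reads). The groups were far apart, with the lowest wild type library above every mutant library by more than an order of magnitude. The log2 fold change was -4.96 (SE 0.33), with an adjusted p of 1.32e-05 from edgeR's quasi-likelihood test with Benjamini-Hochberg adjustment over all tested genes. Every adjusted p and every call below comes from that test unless DESeq2 is named, and every fold change is mutant over wild type on the log2 scale. The files do not show which part of the gene the residual reads come from.

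Among the other genes of the C/EBP list, which was drawn up by gene name, none was called. Its closest relative in acute-phase responses, cebpb, was at 21.1, 29.4 and 24.8 CPM in wild type and 18.9, 21.2 and 17.7 CPM in mutants, so the groups just overlapped (log2 fold change -0.38, SE 0.14, adjusted p 0.486). A second member, cebpa, known in mammals for liver and myeloid differentiation, was level at 65.0, 57.5 and 65.3 CPM against 65.7, 65.6 and 65.0 CPM. Levels of cebpg, the short member that lacks an activation domain, were 96.1, 103 and 94.6 CPM against 86.4, 90.3 and 98.5 CPM. The rest of the list were also within their spread. Log2 fold changes were 0.27 for cebp1, 0.03 for ddit3, the stress-induced member also called CHOP, and -0.04 for cebpz, listed by its symbol.

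Few genes were called between the genotypes in these 6 libraries, and most fold changes were small. At an adjusted p under 0.05, 4 genes were higher in mutants (0.0360% of those tested) and 11 were lower (0.0991%), cebpd included. At an unadjusted p under 0.05, 394 genes were higher (3.55%) and 550 lower (4.95%), together 8.50%. That share depends on the fit: edgeR put 944 genes under this threshold and DESeq2 511. With single libraries left out, edgeR put 675 to 1360 genes under it. Counts and shares at an unadjusted p given below are those of edgeR. The 3 libraries of each group did not overlap in 781 genes that were higher (7.03%) and 742 that were lower (6.68%). Over all tested genes the median log2 fold change was -0.00062, and the 5th and 95th percentiles were -0.36 and 0.33; every called gene lay outside these percentiles. The median SE was 0.12. DESeq2 called 11 genes higher (0.0991%) and 39 lower (0.351%), and all 15 genes called by edgeR were among them.

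These counts hang on single libraries. Without wild type replicate 1, 2 genes were higher and 5 lower. Leaving out wild type replicate 3, the lowest wild type library in plxnb2b, chrm2a, fat3a and LOC567622, gave 12 higher and 77 lower. Omitting a mutant library gave 7 higher and 10 lower for replicate 1, 2 higher and 5 lower for replicate 2, and 2 higher and 4 lower for replicate 3, and omitting wild type replicate 2 gave 6 higher and 9 lower. The calls of cebpd, ccl25b, asic1c, smc1a, crybb1l3 and saga held in each fit that left out a library and in every other alternative that could test them.

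**Figure D1:**
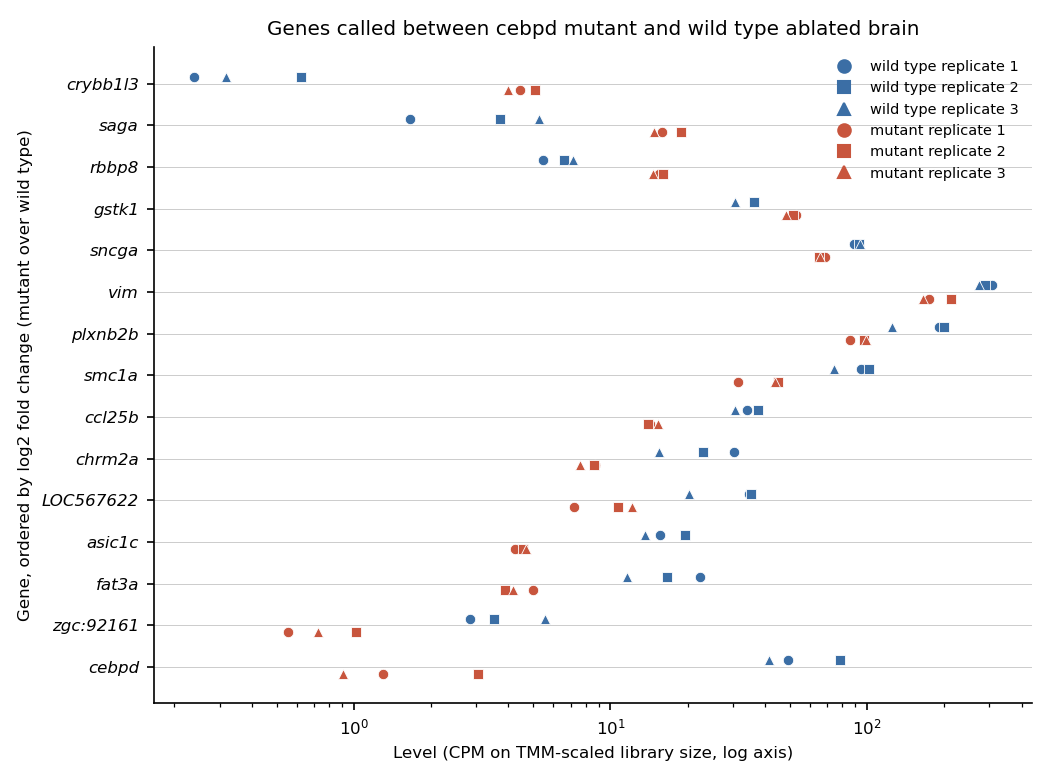
Level in each library of the 15 genes called between cebpd mutant and wild type ablated brain, in CPM on a log axis; blue symbols are wild type, red symbols mutant, and the symbol shape gives the replicate. In every one of the 15 genes the 3 mutant symbols lie wholly to one side of the 3 wild type symbols, and the widest separation is that of cebpd at the bottom.

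Among the genes that fell, ccl25b had the smallest p after cebpd. It encodes a CC chemokine, and its mammalian relative CCL25 attracts developing T cells. Its level was 33.9, 37.7 and 30.7 CPM in wild type and 14.3, 14.1 and 15.4 CPM in mutants, with the libraries of each group close together. The log2 fold change was -1.22 (SE 0.13, adjusted p 0.00136). Of 15 chemokine and chemokine receptor genes tested, it alone was called, 4 lay above 0 and the median was -0.12, which became -0.054 when wild type replicate 2 was left out and -0.19 when mutant replicate 1 was. The next in the list, ccl34b.1, a chemokine gene expressed in zebrafish microglia, was at 69.1, 79.9 and 75.5 CPM against 67.5, 56.3 and 52.7 CPM, which did not pass the adjusted threshold (log2 fold change -0.35, adjusted p 0.263).

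Both called genes of the acid-sensing and acetylcholine receptor list fell. The first, asic1c, encodes a subunit of a proton-gated sodium channel of neurons, and it stood at 15.7, 19.5 and 13.7 CPM in wild type and 4.27, 4.57 and 4.71 CPM in mutants. Its groups were well separated (log2 fold change -1.83, SE 0.20, adjusted p 0.0017). The second, chrm2a, encodes a muscarinic M2 acetylcholine receptor, which acts through inhibitory G proteins. Its level was 30.4, 23.0 and 15.4 CPM in wild type, a spread of about 2-fold, and 8.72, 8.64 and 7.61 CPM in mutants (log2 fold change -1.43, SE 0.23, adjusted p 0.0229). That call was lost when any library but wild type replicate 3 was left out, with adjusted p between 0.0621 and 0.155. Over the 18 tested genes of the list 7 lay above 0, and the median was -0.04, close to that of all genes.

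Lower transcripts also included cell surface proteins of axon guidance and cell polarity. The giant atypical cadherin gene fat3a, which in vertebrate retina shapes neuronal processes, was at 22.3, 16.6 and 11.6 CPM in wild type and 5.01, 3.90 and 4.17 CPM in mutants. The wild type values ranged about 2-fold while the mutant values were tight (log2 fold change -1.92, SE 0.26, adjusted p 0.00582), and the call was lost without mutant replicate 2 (adjusted p 0.0676) or 3 (0.0557). A related gene, cdh23, a cadherin of hair cell tip links, was at 17.8, 21.1 and 14.0 CPM against 9.09, 9.83 and 9.42 CPM without passing the threshold (log2 fold change -0.89, adjusted p 0.0771), and fat1a stood at 510.1, 553 and 404 CPM against 377, 358 and 375 CPM (adjusted p 0.139). DESeq2 called both lower (adjusted p 0.0403 and 0.0154). In all 3 of these cadherin genes the groups were separate, yet 13 of the list's 21 tested genes lay above 0 and the median was 0.04.

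The receptor gene plxnb2b, a plexin that binds class 4 semaphorins, was at 192, 199 and 125 CPM in wild type and 85.7, 97.6 and 99.4 CPM in mutants. Wild type replicate 3 lay well below the other wild types and still above every mutant (log2 fold change -0.86, SE 0.14, adjusted p 0.0259). Leaving out any library other than wild type replicate 3 ended the call, with adjusted p from 0.0899 to 0.170. Of 27 semaphorin, plexin and neuropilin genes tested, 11 lay above 0, the median was -0.04 and no other was called.

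A pair of cytoskeletal and vesicle-associated genes of the intermediate filament and synuclein list fell by smaller amounts from higher levels. The filament protein gene vim, expressed in radial glia and in vessel and meningeal cells, was at 307, 289 and 274 CPM in wild type and 175, 212 and 166 CPM in mutants (log2 fold change -0.65, SE 0.09, adjusted p 0.00582). The gamma synuclein gene sncga, expressed in sets of neurons, was at 89.2, 93.1 and 94.3 CPM and 68.6, 64.7 and 65.4 CPM, the smallest called difference (log2 fold change -0.48, SE 0.07, adjusted p 0.0165). Both sets of libraries were separate in both genes. The call of vim was lost without wild type replicate 1 (adjusted p 0.0550) or mutant replicate 3 (0.0557), and that of sncga without wild type replicate 1 (0.0550), mutant replicate 2 (0.172) or mutant replicate 3 (0.133). Neurofilament members were lower without being called, at 1284, 1204 and 1264 CPM against 1159, 1187 and 1069 CPM for nefma (adjusted p 0.55) and 66.0, 55.5 and 71.2 CPM against 54.7, 55.1 and 44.4 CPM for neflb (adjusted p 0.421), and the keratin krt94 was higher at 31.3, 23.4 and 36.3 CPM against 34.3, 46.6 and 48.0 CPM (adjusted p 0.367). Of the 24 tested genes of the list, 6 lay above 0 and the median was -0.14; without wild type replicate 3, 9 lay above 0 and the median was -0.051.

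One gene of chromosome cohesion fell and one of DNA end processing rose. The cohesin core subunit gene smc1a was at 94.7, 102 and 74.1 CPM in wild type and 31.5, 44.9 and 43.8 CPM in mutants, means of 90.2 and 40.1 CPM without overlap (log2 fold change -1.16, SE 0.14, adjusted p 0.00321). The other, rbbp8, encodes CtIP, which starts the resection of DNA double-strand breaks, and stood at 5.46, 6.62 and 7.15 CPM against 15.4, 16.1 and 14.7 CPM (log2 fold change 1.24, SE 0.17, adjusted p 0.00862). The rbbp8 call was lost without wild type replicate 1 (adjusted p 0.0550), mutant replicate 2 (0.0796) or mutant replicate 3 (0.0504). Of the 23 other cohesin and repair genes tested none was called, 11 lay above 0 and the median was -0.00.

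The clone-named gene zgc:92161 and LOC567622, to which no role is given here, also fell. LOC567622 was at 34.7, 35.4 and 20.2 CPM in wild type and 7.23, 10.7 and 12.13 CPM in mutants (log2 fold change -1.56, adjusted p 0.013), with wild type replicate 3 again the lowest of its group. The few reads of zgc:92161 gave 2.85, 3.52 and 5.56 CPM against 0.556, 1.02 and 0.724 CPM (log2 fold change -2.38, adjusted p 0.0488). The call of zgc:92161 was lost when any library was left out (adjusted p 0.0555 to 0.229). That of LOC567622 was lost without wild type replicate 1 (0.0685) or 2 (0.0603), or mutant replicate 2 (0.0921) or 3 (0.0504).

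Of the 4 genes that rose, one is an enzyme gene. It is gstk1, which encodes the kappa class glutathione transferase of mitochondria and peroxisomes, and it was at 36.3, 36.4 and 30.7 CPM in wild type and 52.7, 51.5 and 48.5 CPM in mutants. The groups were separate, but the call was marginal (log2 fold change 0.57, SE 0.10, adjusted p 0.0488) and leaving out any library ended it, with adjusted p between 0.0502 and 0.234. Among 43 glutathione and redox genes tested 14 lay above 0, with a median of -0.05. The rod arrestin gene saga and the beta crystallin gene crybb1l3, the other two besides rbbp8, belong to the eye and pineal lists described below.

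Genes just outside the threshold did not pass the test. Those given with levels here and in the next paragraph were picked from genes whose groups do not overlap, so their separation is no further result. On the higher side, khk and glyctk, a pair of sugar-metabolism kinases that act on fructose and on glycerate, were at 4.51, 7.45 and 2.70 CPM against 13.4, 13.0 and 13.2 CPM and at 6.41, 15.5 and 6.36 CPM against 29.9, 26.9 and 17.7 CPM (adjusted p 0.0568 and 0.0771). The guanylate kinase gene guk1b was at 0.712, 3.104 and 2.86 CPM against 6.68, 9.49 and 7.06 CPM and the O-glycan branching enzyme gene gcnt4a at 0.949, 1.03 and 1.11 CPM against 2.97, 3.39 and 5.07 CPM (adjusted p 0.0771 and 0.0771). In each of these 4 genes every mutant library lay above every wild type library, as that choice required. For ccdc127a, levels of 33.0, 31.7 and 32.1 CPM against 44.3, 45.2 and 43.1 CPM were the tightest of the group (adjusted p 0.0771), and phactr3b, a regulator of actin and protein phosphatase, had 72.4, 69.3 and 76.2 CPM against 90.2, 92.9 and 94.9 CPM (adjusted p 0.0871).

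On the lower side, ddit4, an inhibitor of mTORC1 signalling that stress and glucocorticoids induce, was at 108, 108 and 103 CPM in wild type and 63.1, 80.8 and 81.1 CPM in mutants (adjusted p 0.0601). The phosphatidylserine synthase gene ptdss1a was at 71.7, 86.3 and 55.3 CPM against 41.7, 43.2 and 43.5 CPM, and the phosphodiesterase gene pde10a, a marker of striatal neurons in mammals, at 94.9, 91.1 and 64.4 CPM against 54.4, 54.2 and 52.7 CPM (adjusted p 0.0568 and 0.0771). Membrane and matrix genes of excitable fibres were among them, with the sodium channel beta subunit gene scn4bb at 23.3, 27.9 and 23.7 CPM against 13.5, 17.5 and 13.6 CPM and hapln2, a link protein of nodes of Ranvier, at 58.9, 64.2 and 49.9 CPM against 43.0, 35.6 and 30.6 CPM (adjusted p 0.0771 and 0.0766). Also picked in this way was fam107b, at 190.1, 157 and 143 CPM against 114, 115 and 114 CPM (adjusted p 0.0563). Levels of bzw1b were 51.7, 52.2 and 37.7 CPM against 28.8, 29.99 and 26.3 CPM (adjusted p 0.0568). The gene timd4 encodes a receptor by which macrophages take up dying cells in mammals. It was at 86.2, 105 and 96.7 CPM against 73.5, 69.3 and 73.7 CPM (adjusted p 0.0771). DESeq2 called 35 genes that edgeR did not, among them khk, guk1b, cryba1a, nr1d4a, nr1d4b, LOC100149066 and si:dkey-22i16.2 on the higher side and fam107b, bzw1b, ptdss1a, hbaa1, ba1l, pde10a, zgc:153154 and LOC100332913 on the lower.

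Several of the differing genes lie near cebpd itself on chromosome 24, in the gene order of the RefSeq assembly GRCz12tu. Of 306 tested genes on that chromosome 4 were called: cebpd, asic1c at 5 tested genes from it, rbbp8 at 6 and vim at 19. None of the 24 other chromosomes had more than 2 called genes, and 10 called genes lay on them in all. At an unadjusted p under 0.05, the share of genes on chromosome 24 was 15.03% against 8.50% of all genes and 5.07% to 11.5% on each other chromosome, so it ranked 1 of 25. The share was highest close to cebpd: without cebpd itself, 14 of 50 genes (28%) within 25 tested genes on each side, 19 of 100 (19%) within 50 and 25 of 166 (15.1%) within 100. Each wider window holds the genes of the narrower ones. The whole chromosome without cebpd gave 45 of 305 (14.8%), so beyond 100 genes the share hardly fell further. Within 25 genes the share ran from 26% to 32% when each library was left out. Of those 14 genes, 11 were lower in mutants and 3 higher.

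**Figure D2:**
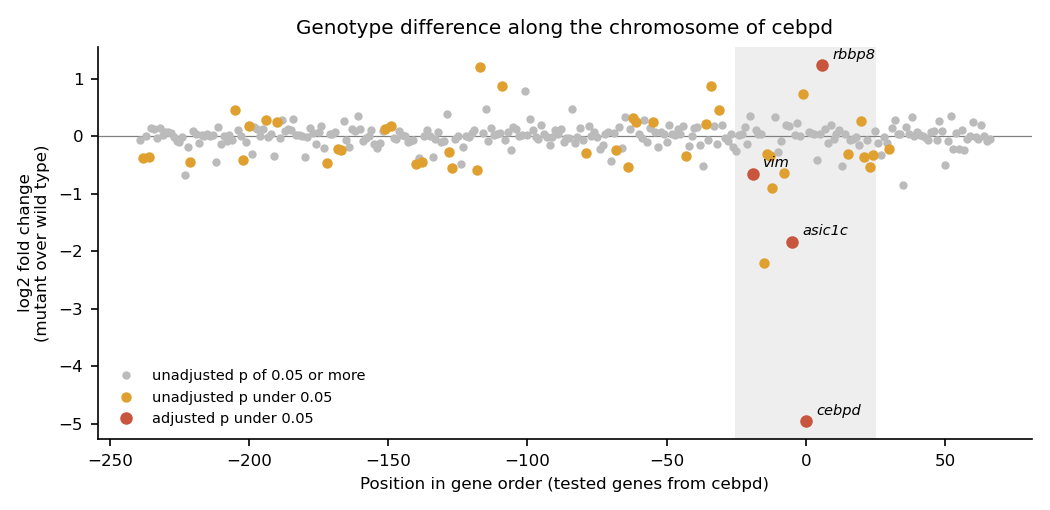
Log2 fold change of mutant over wild type for the 306 tested genes of chromosome 24 against their place in gene order, counted in tested genes from cebpd; red points have an adjusted p under 0.05, orange points an unadjusted p under 0.05, and the grey band marks 25 genes on each side. The coloured points stand closest together inside the band, where 14 of 50 genes other than cebpd pass the unadjusted threshold, and most of them lie below 0.

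The 5 tested genes on each side of cebpd did not differ as a block. Directly beside it, mcm4, a subunit of the replicative DNA helicase, was at 8.31, 7.86 and 7.31 CPM in wild type and 14.7, 12.0 and 12.3 CPM in mutants (log2 fold change 0.74, adjusted p 0.149), while mapre2 on the other side was at 253, 266 and 262 CPM against 276, 268 and 278 CPM. Next to these, ube2v2 (319, 304 and 349 CPM against 328, 318 and 326 CPM), pcmtd1 (120.3, 132 and 130.4 CPM against 126, 133 and 133 CPM), dtna, abcd4 and pak1ip1 had log2 fold changes of at most 0.05 in size, and snai2 and tmem14cb, at few reads, 0.23 and -0.42. A little farther out, rdh12l, a retinol dehydrogenase-like gene, was at 4.51, 3.52 and 3.82 CPM against 0.556, 0.508 and 1.45 CPM, the kinase gene cdk5 at 50.8, 59.0 and 41.3 CPM against 36.2, 29.3 and 31.0 CPM and the carbonic anhydrase gene ca2 at 163, 173 and 153 CPM against 134, 132 and 129 CPM (adjusted p 0.0568, 0.0823 and 0.129). In gene order rdh12l, ca2, nrbp2b and zgc:195173 followed each other, at -15 to -12 tested genes from cebpd. Means in wild type and mutants were 89.4 and 70.6 CPM for nrbp2b and 12.0 and 6.36 CPM for zgc:195173 (adjusted p 0.172 and 0.14). In every gene of this run all mutant libraries lay below all wild type libraries. The run was marked out after these values were seen, so that separation is no further result. The tested genes just beyond its ends, zgc:56676 and slc4a2b, had log2 fold changes of 0.05 and 0.34. Loss of cebpd and sequence linked to the mutant allele cannot be told apart here.

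Tested genes of the pineal organ and of photoreceptors had higher values in mutants almost throughout, and 1 of them was called. The zebrafish pineal is a light-sensing gland on top of the brain that makes melatonin, and its cells use a phototransduction cascade much like that of the retina. Of 34 tested genes 33 had a log2 fold change above 0 with a median of 1.14, against 49.9% above 0 and a median of -0.00062 over all tested genes, and 25 had an unadjusted p under 0.05 on the higher side, against 3.55% of all genes. That number was 13 without mutant replicate 2, where the median was 0.95. The low-count filter had a part in the share above 0. With no such filter 40 of 47 genes of the list lay above 0 and 7 below, with a median of 0.9998. At a mean count of at least 50, all 14 genes left lay above 0, with a median of 1.246. The called gene, saga, encodes an arrestin that ends the light response; it was at 1.66, 3.73 and 5.25 CPM in wild type and 16.0, 18.8 and 14.9 CPM in mutants (log2 fold change 2.14, SE 0.27, adjusted p 0.00321). In saga the lowest mutant library exceeded the highest wild type library by more than 2-fold.

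Wild type replicate 1 held very little pineal transcript, and the size of the difference moved with it. Summed over the list, the level was 113, 406 and 426 CPM in wild type and 722, 879 and 548 CPM in mutants. The pineal opsin gene exorh was at 6.88, 95.4 and 94.1 CPM against 191, 210.3 and 120.3 CPM, and the transducin gene gnat1 at 1.19, 37.7 and 42.8 CPM against 71.8, 94.7 and 59.8 CPM. In both, wild type replicate 1 was more than 10-fold below every other library, and the other wild type libraries were below all mutants. Without it, 34 of 34 genes lay above 0, the median was 0.75, 20 had an unadjusted p under 0.05 and saga was again the only call; the log2 fold change went from 1.37 to 0.88 for exorh and from 1.40 to 0.90 for gnat1 (adjusted p without it 0.159 and 0.0944). Whether the amount of pineal tissue taken with each brain differed was not tested, and in bulk tissue fewer cells of a type and less RNA per cell cannot be told apart.

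The melatonin synthesis genes aanat2, asmt and tph1a were also lowest in wild type replicate 1 and higher in every mutant than in every wild type library. The pineal enzyme gene aanat2, which sets the rhythm of melatonin, was at 2.14, 16.6 and 13.4 CPM in wild type and 28.9, 37.8 and 27.0 CPM in mutants (log2 fold change 1.495, SE 0.34, adjusted p 0.139). For asmt, which carries out the last step, levels were 2.14, 9.73 and 12.7 CPM against 17.3, 29.5 and 16.3 CPM, and for tph1a, which makes the serotonin precursor, 11.2, 25.7 and 22.7 CPM against 35.06, 39.6 and 28.3 CPM (adjusted p 0.261 and 0.257). None of the 3 passed the threshold, though in each the groups were separate. Without wild type replicate 1 the log2 fold change was 1.08 for aanat2, 0.90 for asmt and 0.51 for tph1a (adjusted p 0.0555, 0.367 and 0.377). The guanylate cyclase activator gene guca1a (0.475, 13.5 and 10.97 CPM against 26.7, 34.9 and 22.5 CPM) and the cone opsin kinase gene grk7b (1.42, 1.86 and 2.86 CPM against 4.45, 5.59 and 5.61 CPM) had adjusted p of 0.16 and 0.144, and without wild type replicate 1 their log2 fold changes went from 1.69 to 1.21 and from 1.29 to 1.11 (adjusted p 0.0555 and 0.367). Some members of the list did not share this pattern. The rod opsin gene rho was at 2.85, 2.07 and 2.86 CPM against 3.52, 2.71 and 1.99 CPM. Levels of aanat1, a relative of aanat2, were 4.27, 2.28 and 3.97 CPM against 3.34, 3.56 and 2.90 CPM. Those of asmt2 were 21.1, 19.2 and 19.2 CPM against 22.4, 21.0 and 19.7 CPM.

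**Figure D3:**
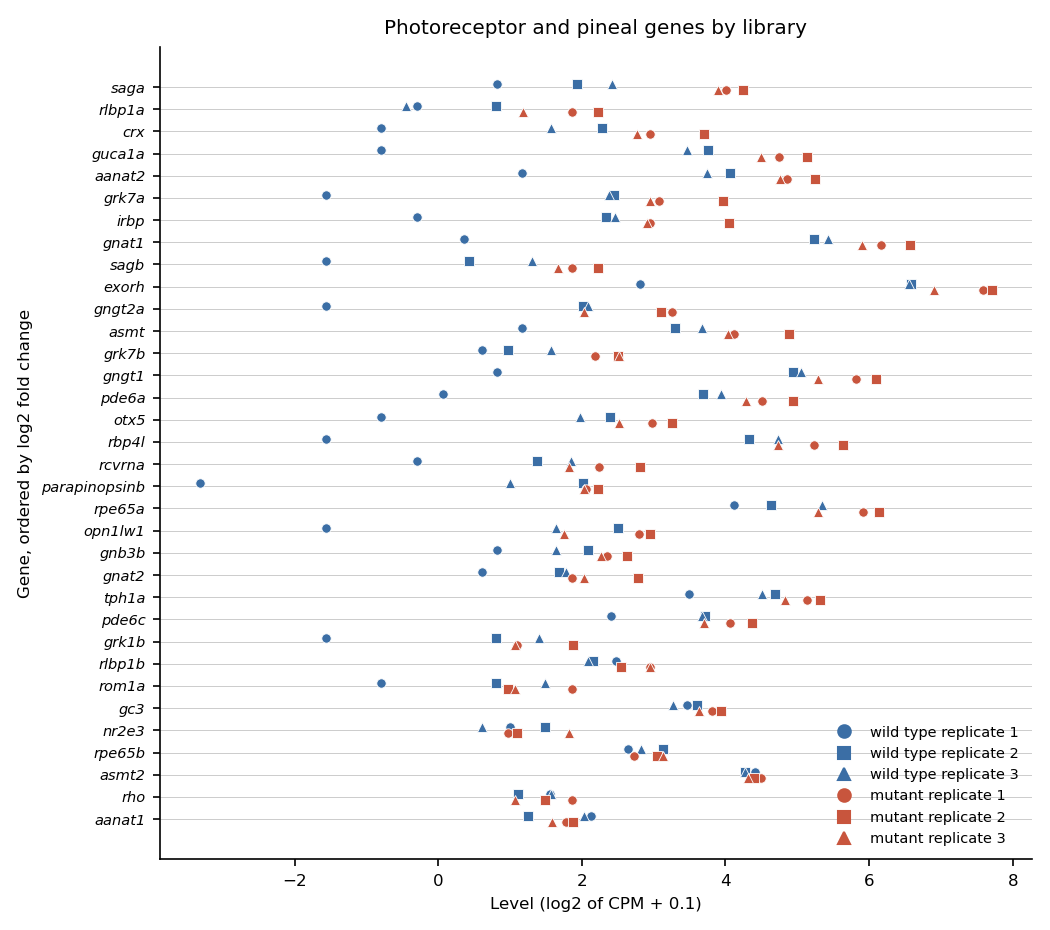
Level in each library of the 34 tested photoreceptor and pineal genes, as log2 of CPM plus 0.1, ordered by log2 fold change with saga at the top; blue symbols are wild type, red symbols mutant, and shapes give the replicate. Wild type replicate 1, the blue circle, lies far to the left in most rows, at 6.88 CPM for exorh, while the other blue symbols lie closer to the red ones and the bottom rows, with asmt2, rho and aanat1, show no separation.

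One lens crystallin gene rose in mutants, while most genes of the lens list had next to no reads. The beta crystallin gene crybb1l3 had 1, 3 and 2 reads in wild type (0.237, 0.621 and 0.318 CPM) and 24, 30 and 22 reads in mutants (4.45, 5.08 and 3.98 CPM), with no overlap and an adjusted p of 0.00321. From the summed reads, 6 against 76, the ratio was 11.6 with a 95% Clopper-Pearson interval of 5.07 to 32.5, which covers counting error only. A second beta crystallin gene, cryba1a, was at 1.19, 0.828 and 2.70 CPM against 5.01, 8.81 and 7.97 CPM and missed the threshold (log2 fold change 2.11, SE 0.38, adjusted p 0.0535), while DESeq2 called it higher (adjusted p 0.00237). Both lie on chromosome 15, as does fat3a. Only 4 of the 42 lens genes in the files had enough reads to be tested, and the 38 others summed to between 38 and 61 reads per library, with cryaa, the main alpha crystallin of the lens, at 0 reads in all 6. The small heat shock type crystallin gene cryabb had the highest level of these crystallins, at 19.9, 23.2 and 20.03 CPM against 15.8, 18.3 and 17.4 CPM (adjusted p 0.586).

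Genes of the circadian clock list lay on both sides of 0, and none was called by edgeR, while DESeq2 called nr1d4a and nr1d4b higher in mutants (adjusted p 0.00912 and 0.000715). The clock is a feedback loop in which CLOCK-type and BMAL proteins drive genes that later repress them, and nuclear receptors of the Rev-erb family (the nr1d genes) repress the activators. Levels of nr1d1 were 67.9, 81.5 and 79.8 CPM in wild type and 94.6, 137 and 167 CPM in mutants, of nr1d4a 53.6, 49.3 and 54.1 CPM against 64.2, 83.4 and 79.7 CPM and of nr1d4b 55.1, 58.4 and 70.12 CPM against 76.8, 108 and 119 CPM. In all 3 receptor genes the groups were separate, as their choice required, with mutant replicate 1 nearest to the wild types (adjusted p 0.0771, 0.0724 and 0.0766). Leaving out that nearest library widens the gap by itself, and all 3 were then called (adjusted p 0.00258, 0.0158 and 0.00586). Of the fits without any other single library, only that without wild type replicate 3 called 1 of them, nr1d4b (adjusted p 0.0327).

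The activator gene clocka was at 82.4, 87.3 and 68.8 CPM against 60.7, 56.3 and 61.6 CPM, and npas2, a relative of it, at 68.6, 44.3 and 39.4 CPM against 34.1, 36.6 and 29.3 CPM (adjusted p 0.139 and 0.303). Both pairs of groups were separate, with the mutants lower. The other activator genes did not share that separation, with log2 fold changes of -0.15 for clockb, -0.21 for arntl2, 0.05 for arntl1a and 0.06 for arntl1b. Over the whole list 22 of 38 tested genes lay above 0 and the median was 0.05. In each direction 4 of the 38 had an unadjusted p under 0.05, where all tested genes gave 3.55% higher and 4.95% lower. The labels do not give the hour at which brains were taken, so a difference in hour between the groups was not tested.

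Of the genes that cardiac ablation itself raised in the brain, most had a log2 fold change below 0 in the mutants. In a separate pair of brain experiments of the series, 2 ablated and 2 uninjured libraries that share none of the 6 libraries here, 35 of 12371 tested genes were called higher after ablation (0.283%) and 21 lower (0.170%). Of the 35, 33 were tested in the genotype comparison: 30 lay below 0 and 3 above, the median was -0.28, and edgeR called 1 lower, which was cebpd. On the lower side 13 had an unadjusted p under 0.05, cebpd among them, against 1 on the higher. DESeq2 also called si:dkey-85k7.7 lower (adjusted p 0.0101). With cebpd left out, 29 of 32 lay below 0 and the median was -0.26. Over all tested genes 49.9% lay above 0, and 4.95% had an unadjusted p under 0.05 on the lower side and 3.55% on the higher.

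That pattern was weaker without wild type replicate 2, the library highest in many of these genes. Without it 23 of 32 lay below 0, the median was -0.072 and 6 had an unadjusted p under 0.05 on the lower side against 3 on the higher, while without any other single library the median was -0.34 to -0.18. The alpha-arrestin gene arrdc3b, which had the highest fold change after ablation among the 33, was at 247, 403 and 196 CPM in wild type and 195, 179 and 114 CPM in mutants, so the mutants lay below every wild type library but the lowest wild type was nearly level with the highest mutant (log2 fold change -0.79, SE 0.22, adjusted p 0.261). The linker histone genes histh1l and h1fx were at 417, 683 and 416 CPM against 373, 367 and 159 CPM and 358, 543 and 358 CPM against 337, 333 and 233 CPM (adjusted p 0.406 and 0.381). Both were highest in wild type replicate 2 and lowest in mutant replicate 3.

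Other genes of that set were steadier between libraries. The uncharacterized si:dkey-85k7.7 was at 52.0, 64.2 and 43.2 CPM in wild type and 36.4, 34.7 and 29.2 CPM in mutants, the smallest p of the set after cebpd (log2 fold change -0.66, SE 0.14, adjusted p 0.0869). After arrdc3b came wu:fj16a03 at 167, 178 and 191 CPM against 156, 152 and 145 CPM, and slc3a2b, the heavy chain of amino acid transporters, at 367, 442 and 322 CPM against 308, 309.6 and 282 CPM (adjusted p 0.263 and 0.282). All 3 had groups that did not overlap. Against the pattern, hif1al2 was at 32.04, 33.3 and 33.4 CPM and 40.1, 37.8 and 42.4 CPM, with every mutant above every wild type (adjusted p 0.421), and the tight junction gene cldn5b at 10.21, 21.9 and 10.7 CPM and 22.8, 15.4 and 11.8 CPM overlapped widely.

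**Figure D4:**
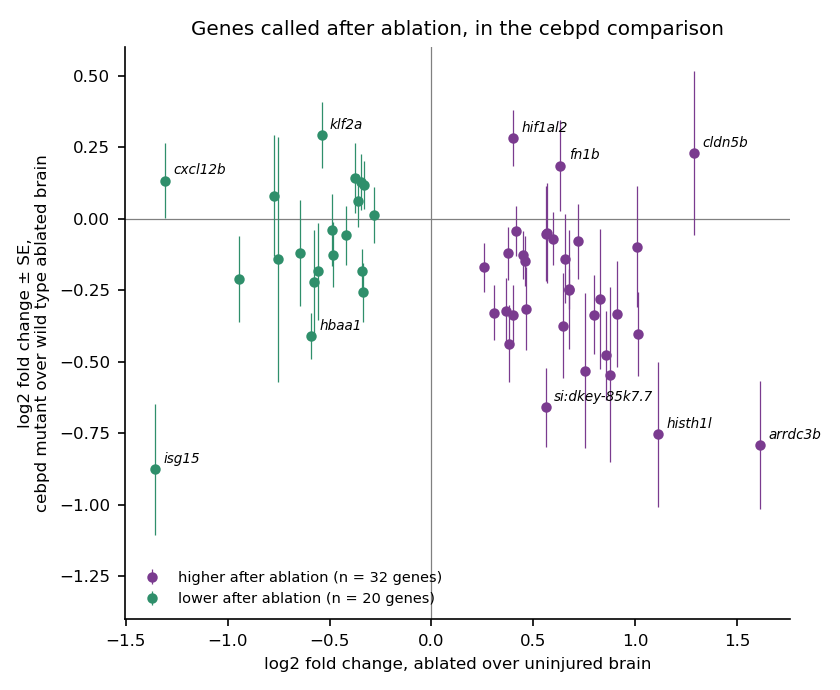
Log2 fold change of cebpd mutant over wild type ablated brain (vertical, with bars of 1 SE) against log2 fold change of ablated over uninjured brain (horizontal) for the genes called in the ablation comparison, cebpd left out; purple points were higher after ablation and green points lower. Of the 32 purple points 29 lie below the horizontal line at 0, with arrdc3b at the far right, while the 20 green points lie on both sides of it.

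Genes that ablation lowered lay on both sides of 0 in the mutants. Of 20 tested, 12 lay below 0, the median was -0.089 and edgeR called none, while DESeq2 called hbaa1 lower (adjusted p 0.00237), and without wild type replicate 1 the median was 0.062. The interferon-induced gene isg15, lower after ablation, was lower in the mutants too, at 6.88, 8.90 and 10.18 CPM against 5.38, 4.07 and 4.89 CPM (adjusted p 0.194), and the adult alpha globin gene hbaa1 was at 463, 481 and 404 CPM against 351, 357 and 304 CPM (adjusted p 0.0766). In both genes the groups were separate. They overlapped in the galectin gene lgals2a, at 67.4, 51.9 and 59.8 CPM against 49.2, 46.8 and 53.6 CPM, and in flj13639, at 956, 809 and 890.2 CPM against 694, 836 and 808 CPM (adjusted p 0.508 and 0.546). In the other direction, klf2a, a factor of vessel walls that responds to blood flow, was at 27.06, 24.4 and 31.0 CPM against 31.7, 35.2 and 34.6 CPM (adjusted p 0.5).

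Glucocorticoid-responsive genes lay mostly below 0. Glucocorticoids are stress hormones whose nuclear receptor switches on genes such as fkbp5, klf9 and, in mammals, Cebpd itself. Of 31 tested genes 5 lay above 0 and the median was -0.22. On the lower side 14 had an unadjusted p under 0.05, cebpd among them, against 4.95% of all genes, and none on the higher. That number was 9 without wild type replicate 2 or without mutant replicate 3. By edgeR cebpd was the only call, and DESeq2 also called ddit4 lower (adjusted p 0.00504). The groups did not overlap in 4 of the 31 genes, all lower in mutants and cebpd among them, against 6.68% of all tested genes on that side. The list's median deviation from each gene's mean over the 6 libraries was 0.033, 0.32 and -0.043 log2 units in wild type and -0.032, -0.079 and -0.17 in mutants. Wild type replicate 3 thus lay among the mutants. Without cebpd the median was -0.22 over 30 genes, and it was -0.31 to -0.17 when each library was left out. The receptor cochaperone gene fkbp5 was at 1057, 780.5 and 655 CPM in wild type and 553, 684 and 655 CPM in mutants, and the transcription factor gene klf9 at 197, 173 and 114 CPM against 122, 113 and 121 CPM (adjusted p 0.409 and 0.389). Both were highest in wild type replicate 1, and wild type replicate 3 lay within the mutant range. The alpha-arrestin gene arrdc3a, in this list and among the genes raised by ablation, was at 465, 545 and 394 CPM against 409.9, 370.4 and 329.8 CPM (adjusted p 0.356).

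Glial lists also lay below 0, by small amounts. Radial glia are the astrocyte-like cells of the fish brain and oligodendrocytes make its myelin. For radial glia 5 of 25 tested genes lay above 0 and the median was -0.13, with vim the only edgeR call and glula also called lower by DESeq2 (adjusted p 0.0272); the summed level was 14400.3, 15186 and 13531 CPM in wild type and 13255, 12553 and 13506 CPM in mutants, which overlap. The glutamine synthetase gene glula was at 1923, 2261 and 1794 CPM against 1733, 1501 and 1438 CPM and s100b, a calcium-binding protein gene of astroglia, at 932, 810.1 and 869.6 CPM against 682, 688 and 829.6 CPM (adjusted p 0.158 and 0.367). The groups were separate in glula and overlapped in s100b.

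For oligodendrocytes and myelin 4 of 17 genes lay above 0, the median was -0.16 and none was called. Their summed level was 3518, 3420.5 and 3416 CPM in wild type and 2888, 3082 and 3262 CPM in mutants, with every mutant below every wild type. The myelin protein genes mpz, at 457, 417 and 383 CPM against 306, 365 and 361 CPM, and plp1a, at 44.1, 42.4 and 37.5 CPM against 33.4, 31.5 and 31.3 CPM, had adjusted p of 0.279 and 0.261. The myelin-associated glycoprotein gene mag stood at 334, 345 and 283 CPM against 277, 275 and 276 CPM and padi2, an enzyme that modifies myelin basic protein, at 39.4, 36.4 and 32.3 CPM against 26.5, 26.4 and 28.1 CPM (adjusted p 0.432 and 0.225).

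Microglia, neutrophil and interferon genes lay mostly below 0, while lymphocyte genes were evenly split. Of 17 microglia and macrophage genes 4 lay above 0, the median was -0.22 and none was called, and their summed level was 1595, 1747 and 1685 CPM in wild type and 1554, 1587 and 1458 CPM in mutants. The leukocyte actin regulator gene coro1a was at 32.3, 26.5 and 27.5 CPM in wild type and 22.1, 22.5 and 20.3 CPM in mutants, and cd74a, the invariant chain of antigen presentation, at 446, 491 and 485 CPM against 412, 435 and 394 CPM (adjusted p 0.321 and 0.369). Among 17 neutrophil genes 6 lay above 0 (median -0.14), and ncf1, a subunit of the oxidase that makes superoxide, was at 33.5, 35.4 and 26.7 CPM against 21.5, 18.98 and 24.99 CPM (adjusted p 0.2). For the interferon list 5 of 16 genes lay above 0 (median -0.11), and stat2, a factor that carries the interferon signal, was at 83.5, 106 and 103 CPM against 71.2, 81.0 and 81.7 CPM (adjusted p 0.29). In cytokine signalling 12 of 30 genes lay above 0 (median -0.04), with the receptor gene lifra at 84.5, 102 and 63.3 CPM against 59.7, 57.4 and 63.2 CPM (adjusted p 0.297), and in complement and plasma proteins 4 of 14 (median -0.15). When each library was left out these medians ran from -0.22 to -0.14 for neutrophils, from -0.17 to -0.11 for the interferon list and from -0.34 to -0.095 for complement, with the ends at mutant replicate 3 and mutant replicate 1 left out for the last. Over all the edgeR alternatives the complement median ran from -0.34 to 0.047 and so did not keep its sign. The neutrophil (-0.22 to -0.13) and interferon (-0.24 to -0.059) medians stayed below 0. Of 12 lymphocyte genes 6 lay above 0 (median -0.011), and sla2, an adaptor that dampens T cell receptor signalling in mammals, was at 10.7, 7.66 and 10.5 CPM against 17.8, 14.1 and 17.2 CPM (adjusted p 0.14).

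Globin genes had lower values in mutants and were called by DESeq2 alone (adjusted p 0.00237 for hbaa1 and 0.00307 for ba1l). The beta globin gene ba1l was at 104, 145 and 128 CPM in wild type and 67.9, 92.9 and 88.4 CPM in mutants (log2 fold change -0.60, adjusted p 0.0823), and hbaa1 is given above. Near-identical globin copies can share reads, so single globin genes are uncertain. Over 26 erythroid genes 12 lay above 0 and the median was -0.03. Their summed level was 1019, 1092 and 955 CPM in wild type and 856, 875 and 821 CPM in mutants, again every mutant below every wild type. Of that sum hbaa1 alone held 463, 481 and 404 CPM in wild type and 351, 357 and 304 CPM in mutants. The groups did not overlap in 6 of the 26 genes on the lower side and 1 on the higher. Over all tested genes those shares were 6.68% and 7.03%. The higher gene of the list was gata1a, at means of 1.72 CPM in wild type and 3.44 CPM in mutants (log2 fold change 0.96, adjusted p 0.455). Whether the amount of blood in the brains has a part in the immune and globin values was not tested.

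The broad classes of the brain stayed near 0. Of 30 neuronal genes 14 lay above 0 (median -0.00) and none was called; of 78 cytosolic ribosomal protein genes 42 (median 0.01) and of 76 respiratory chain genes 34 (median -0.01), again with no call. Endothelial and mural genes had 12 of 29 above 0 (median -0.03), with the pericyte gene rgs5a at 31.8, 32.1 and 29.6 CPM against 24.7, 21.2 and 21.6 CPM (adjusted p 0.159). Ion and water transport genes had 7 of 29 above 0 (median -0.07), and the neuronal chloride transporter gene slc12a5b was at 267, 258 and 192 CPM against 181, 192 and 194 CPM (adjusted p 0.334). Cell cycle genes had 27 of 43 above 0 (median 0.07), with mcm4 the smallest p. Of the 37 lists 12 held a called gene, several of them drawn up around one, 24 had a median between -0.1 and 0.1, 9 a lower and 4 a higher one. The 4 higher were the pineal and lens lists, striated muscle (11 of 12 above 0, median 0.17) and pituitary (8 of 10, median 0.16), the last pair with no call. The lens median of 0.95 came from 4 tested genes. Of these 2 lay above 0, crybb1l3 and cryba1a, which had most of their reads in mutants. With no filter on low counts 12 of 26 lens genes lay above 0 and the median was -0.063. At a mean count of at least 50, 1 lens gene was left, at -0.29. The muscle median was 0.090 without mutant replicate 1, with 7 of 13 above 0, and 0.31 without mutant replicate 2, and the pituitary median was 0.075 when wild type replicate 2 was left out and 0.25 when mutant replicate 1 was. Mutant replicate 1 held muscle transcripts that the other libraries nearly lacked: the myoglobin gene mb had 4, 11 and 10 reads in wild type and 217, 8 and 4 in mutants, and the muscle parvalbumin gene pvalb4 2, 3 and 4 against 110, 5 and 0. The part of that tissue in other values was not tested.

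**Figure D5:**
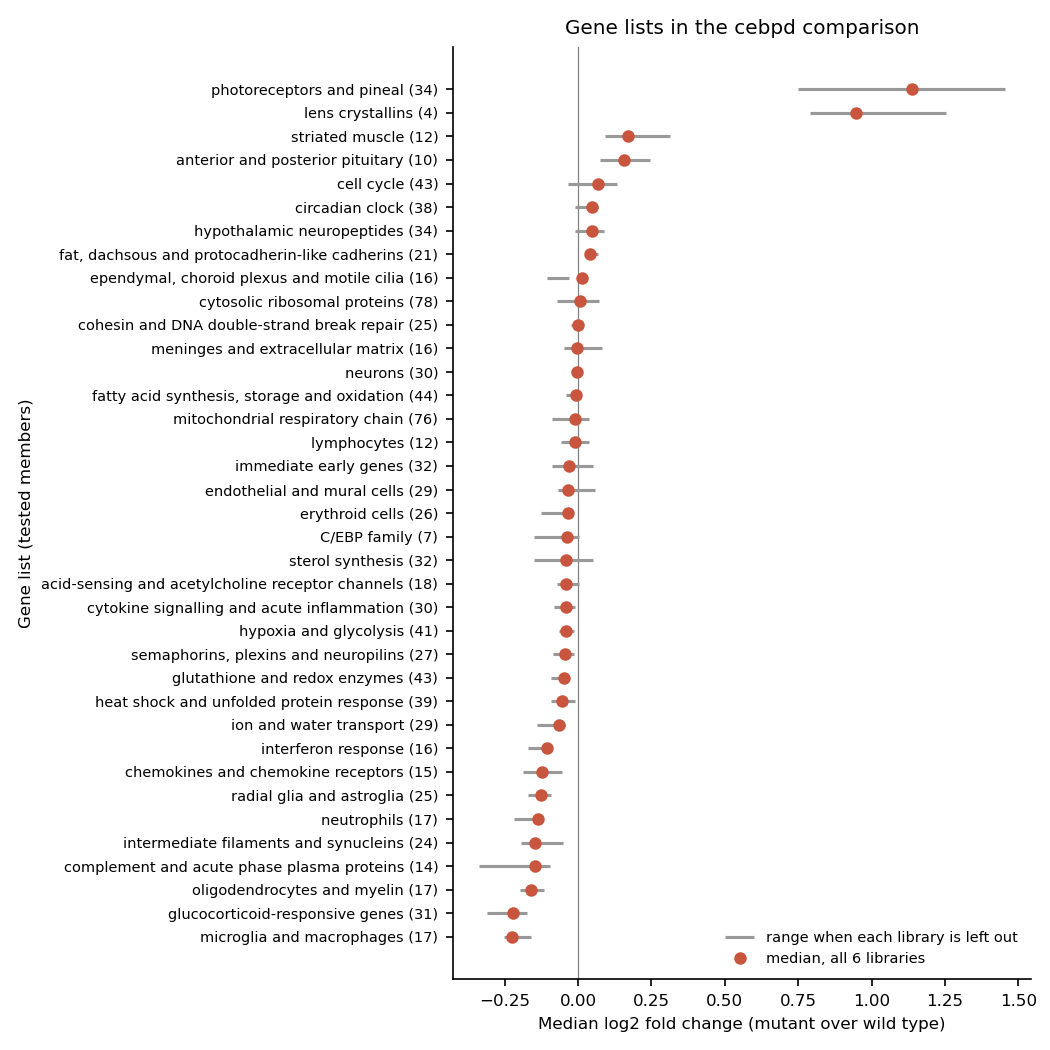
Median log2 fold change of mutant over wild type for each of the 37 gene lists (red points), with the range of that median when each of the 6 libraries was left out in turn (grey lines) and the number of tested genes in brackets. The photoreceptor and pineal list stands far to the right at 1.14, microglia and glucocorticoid-responsive lists are lowest at -0.22, and 24 lists lie within 0.1 of 0.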

How the data were processed

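RNA was measured in 6 ablated brain libraries, 3 cebpd mutant and 3 wild type, grouped by the genotype in the labels. The deposited values are counts: whole reads per gene symbol, not normalized, for 14781 genes plus 5 summary lines per library, which were left out of library sizes and tests. Reads outside any gene made up 56.6% to 58.3%. The tools for both assays of the series were TopHat2 2.1.1, Bowtie2 2.2.5, Trim Galore 0.4.1 and 0.6.4, Picard 1.91, HTSeq 1.6.1, MACS2 and SAMtools 1.5, with the build danRer10, per the submitters' processing notes. The annotation, the strand setting and the treatment of multiply mapped reads are not stated there, so reads of overlapping, antisense or near-identical genes cannot be told apart.

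Counts were fitted in R 4.3.3 with edgeR 4.0.16: filterByExpr, TMM, glmQLFit and glmQLFTest on the 6 libraries, genotype as the only term, Benjamini-Hochberg adjustment over 11103 genes, threshold 0.05. The biological coefficient of variation was 7.56%. Means of 3 libraries and their spread limit precision: the median SE of a log2 fold change was 0.12. SEs were derived from the F statistic. The ablation comparison, of 2 against 2 other brain libraries, was fitted in the same way. The fit was also run on simulated data, with a wider spread between libraries than the fitted one and no library that stood apart. That run checks the code and does not bear on the calls here. Gene order came from RefSeq GRCz12tu, in which 11007 tested genes (99.1%) were matched by symbol or synonym; no coordinates are used, since the builds differ.

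The lists (1706 entries, 1326 in the files) and the genes described were chosen with earlier results of these data known, so lists are given by counts and medians with no test. The text names cebpd and the C/EBP list, every called gene, and 10 genes of next smallest p in each direction. Those 10 were taken among genes with at least 2 CPM in the higher group, separate groups and no clone or LOC name. Also given are genes from among the 4 of smallest p in each list (not all of these are described) and the 5 tested neighbours on each side of cebpd. The rest are the 5 genes of smallest genotype p among those called in each direction of the ablation comparison, and up to 8 genes per direction called by DESeq2 alone. The genes elavl4, exorh, gnat1, rho, aanat1, asmt, asmt2, npas2, clockb, arntl2, arntl1a, arntl1b, pvalb4, mb, fkbp5, klf9, cdk5, nrbp2b, zgc:195173, neflb, histh1l, h1fx, hif1al2 and cldn5b are also named where the rule did not list them. They were chosen after their values were seen. The alternatives tried were DESeq2 1.42.0, RLE size factors, no filter on low counts, a mean count of at least 50, all 10 brain libraries in the fit, a replicate block, and each library left out. The ATAC-seq and kidney marrow libraries were not analysed here.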

Additional observations from a re-analysis of the deposited data

How the results depend on the processing

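With the RLE size factors of DESeq2 in edgeR the counts were 4 genes higher and 11 lower in mutants, as in the fit reported. They were 11 and 39 with DESeq2, 14 and 27 with no filter on low counts, 2 and 10 at a mean count of at least 50, 10 and 19 with all 10 brain libraries in the fit, and 2 to 12 and 4 to 77 when each library was left out. With the replicate number as a block they were 22 and 44. The numbers share no stated link between the groups: deviations of same-numbered libraries from their group means correlated at -0.058, -0.012 and -0.053 across 11103 genes. No library correlated best with its own number, so the block is given here only. The fold change of cebpd kept its direction and call throughout, at -5.64 to -4.65. The causes of the shifts in the counts were not tested.

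Of the fitted fold changes of named genes under the alternatives, 1467 kept their direction and side of the threshold, 120 passed it where they had not, 37 no longer passed and 18 changed sign. All sign changes were of genes near 0. For ube2v2 the value was 0.0023 with RLE, 0.00207 with DESeq2, 0.00715 with no filter, 0.00135 at the mean count of 50, 0.00406 with 10 libraries and 0.0026 with the block. When each library was left out it ran from -0.048 to 0.058 for ube2v2, -0.15 to 0.033 for cebpz, -0.044 to 0.077 for ddit3, -0.0084 to 0.054 for pcmtd1, -0.090 to 0.16 for dtna, -0.015 to 0.086 for abcd4 and -0.14 to 0.19 for pak1ip1. At this depth a gene near 1 CPM has about 5 reads per library, so only large differences could be called there.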
